A study of Mus musculus with 8 samples.

Results

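The ATAC5-only regions were the open chromatin regions of the library titled ATAC5 that had no counterpart in any of the other 6 ATAC-seq libraries of the series. They were selected on peak calls: a peak of the ATAC5 list was kept when no peak of ATAC1, ATAC2, ATAC3, ATAC4, ATAC6 or ATAC7 lay within 500 bases of it. This gave 3837 regions, or 12.2% of the 31479 ATAC5 peaks (95% Wilson interval 11.8% to 12.6%), among 164103 peaks in the 7 lists. The same rule gave 2454 ATAC1-only, 4669 ATAC2-only and 1937 ATAC6-only regions, the 3 sets that served for comparison.

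The series held 7 ATAC-seq libraries and 1 Input library of bone marrow stromal cells. For every library the labels gave wild type C57BL/6J mice at 6 weeks of age, while the paper names C57BL/6JJcl mice and a wider age range. In the study, non-hematopoietic cells positive for Sca-1 and PDGFR-α were sorted into 7 populations after removal of cells carrying CD31, CD45 or TER119, but the labels did not say which population a title stands for. Each title had 1 library, so no replicate spread could be measured and no test between libraries was made. Pdgfra, the gene of a kept antigen, had a start-site peak in 5 libraries, ATAC5 among them. At Ly6a, the gene of Sca-1, no library had one. Peaks were also present in ATAC5 at start sites of Ptprc (CD45) and Pecam1 (CD31), the genes of removed antigens. Ptprc had one in 4 libraries, ATAC1, ATAC3, ATAC5 and ATAC7. Pecam1 had start-site peaks in ATAC5 alone, which lay closer to a start site of the neighbouring Gm885 (144 and 316 bases) than to that of Pecam1. The part of cells carrying these antigens in the values below was not tested.

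ATAC-seq uses the Tn5 transposase, which inserts sequencing adapters where DNA is not covered by nucleosomes, so that promoters and enhancers stand out as peaks. Promoters are open in many cell types. Enhancers, which lie within introns or between genes and bind factors such as AP-1, RUNX and GATA proteins, vary more between cell types. CTCF binds a long motif and, with cohesin, holds the ends of chromatin loops.

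The sequences of 8 regions are shown because they were among the best-ranked members of their kind whose window held no annotated untranslated region. Each line gives 200 bases of the mm9 plus strand about the peak centre, and capitals mark matches on either strand to AP-1 (TGANTCA), the GC box (GGGCGG) or the CTCF motif. The first 2 lay within 1 kb of a start site, upstream of Ccl2, a chemokine that attracts monocytes (chr11:81848868-81849067), and of Kctd10 (chr5:114820477-114820676).
Ccl2 promoter: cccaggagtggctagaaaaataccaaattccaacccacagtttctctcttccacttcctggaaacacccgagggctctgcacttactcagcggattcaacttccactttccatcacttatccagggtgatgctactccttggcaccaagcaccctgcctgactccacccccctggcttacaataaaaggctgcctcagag
Kctd10 promoter: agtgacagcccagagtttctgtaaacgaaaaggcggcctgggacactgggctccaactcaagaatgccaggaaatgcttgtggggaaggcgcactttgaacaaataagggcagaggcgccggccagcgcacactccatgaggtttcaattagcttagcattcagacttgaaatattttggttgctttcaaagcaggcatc
The next 5 lay over 10 kb from any start site and are named after the closest protein-coding start site. They were at Doc2b, a calcium sensor of vesicle fusion (chr11:75626749-75626948), H2afz, the histone variant H2A.Z (chr3:137415945-137416144), Il31ra, a cytokine receptor subunit (chr13:113320175-113320374), Pdp2, a phosphatase of pyruvate dehydrogenase (chr8:107094951-107095150), and Lbx1, a homeobox gene (chr19:45295686-45295885).
Doc2b distal: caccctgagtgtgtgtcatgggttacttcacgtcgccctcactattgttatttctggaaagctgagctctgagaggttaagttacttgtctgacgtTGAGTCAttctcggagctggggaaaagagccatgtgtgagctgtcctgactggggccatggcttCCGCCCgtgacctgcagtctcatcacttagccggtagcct
H2afz distal: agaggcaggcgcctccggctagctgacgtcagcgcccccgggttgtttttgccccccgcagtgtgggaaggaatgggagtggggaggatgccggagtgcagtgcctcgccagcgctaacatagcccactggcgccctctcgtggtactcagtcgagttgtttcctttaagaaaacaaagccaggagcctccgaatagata
Il31ra distal: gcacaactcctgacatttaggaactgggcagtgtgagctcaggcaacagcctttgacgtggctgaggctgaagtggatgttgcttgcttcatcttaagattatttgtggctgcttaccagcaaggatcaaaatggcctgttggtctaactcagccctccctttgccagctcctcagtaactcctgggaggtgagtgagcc
Pdp2 distal: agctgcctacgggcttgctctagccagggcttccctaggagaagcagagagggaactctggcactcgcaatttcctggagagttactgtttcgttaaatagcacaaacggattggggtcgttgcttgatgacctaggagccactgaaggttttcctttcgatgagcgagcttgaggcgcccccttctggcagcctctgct
Lbx1 distal: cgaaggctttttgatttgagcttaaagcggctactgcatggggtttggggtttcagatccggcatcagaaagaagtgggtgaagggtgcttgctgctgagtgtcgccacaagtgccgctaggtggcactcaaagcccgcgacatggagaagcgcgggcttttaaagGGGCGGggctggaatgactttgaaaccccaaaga
The last was the best-ranked member with a CTCF match among those over 10 kb from a start site whose window could be shown, 30427 bases from the start site of Anxa1, which encodes an annexin (chr19:20419551-20419750).
Anxa1 distal: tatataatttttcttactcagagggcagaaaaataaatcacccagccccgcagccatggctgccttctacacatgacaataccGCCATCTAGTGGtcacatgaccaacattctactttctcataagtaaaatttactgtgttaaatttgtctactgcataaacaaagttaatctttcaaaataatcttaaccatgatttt
The Doc2b window held an AP-1 match and a GC box, the Lbx1 window a GC box and the Anxa1 window a CTCF match. No exact match to the letters searched for these 3 motifs was present in the Ccl2, Kctd10, H2afz, Il31ra and Pdp2 windows. Near matches were not counted in any window.

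The members were weak peaks of the ATAC5 list, and a region open in few cells and one less open in many cannot be told apart in such libraries. The list is ordered by peak strength, and the best member stood at rank 9187, 29.2% of the way down. When the list was cut into 10 equal bins, none of the 3148 peaks in each of the first 2 bins was a member, which allows a share of up to 0.0953% (3 counts of 3148, below the upper Wilson limit of 0.122%), and the share then increased from bin to bin to 1216 of 3147 peaks (38.6%, 37.0% to 40.4%) in the last. Rank, reads and fold come from the calls that chose the members, so these values are a description and carry no test.

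Each peak has an outer region in which the authors counted reads of ATAC5 and of Input. ATAC5 reads in the members ranged from 21 to 249 with a median of 59, against a median of 145 and a highest value of 4792 in the other 27642 ATAC5 peaks. Input reads had a median of 12 in the members (range 0 to 132) and of 26 in the others. Outer regions were also shorter in the members, with medians of 303 and 516 bases, and per 1000 bases of outer region the median ATAC5 reads were 207 and 312 and the median Input reads 38.1 and 55.6. The median fold over Input was 8.99 in the members and 11.2 in the others, so the 2 sets were closer in fold than in reads. Input had no read in 21 members (0.547%, 0.358% to 0.835%) and in 34 other peaks (0.123%, 0.0880% to 0.172%). There the listed fold, up to 17470.7 in the members, rests on a small constant added to the Input reads. With this constant, the fold of the list equalled ATAC5 reads over Input reads times 1.71. This was the highest such factor of the 7 lists, where the others were between 1.01 and 1.58. The origin of this factor is not given in the sources used here.

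**Figure D1:**
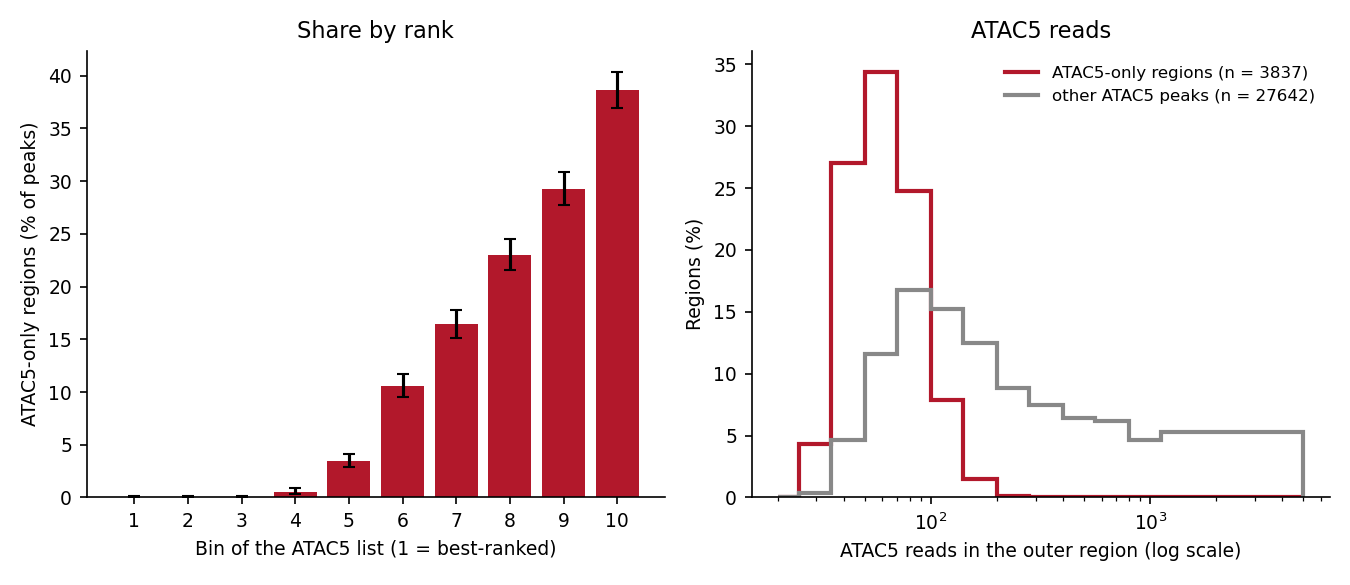
ATAC5-only regions by strength. Left, the percent of ATAC5 peaks that were ATAC5-only in each of 10 equal bins of the ranked list, with 95% Wilson intervals, rising from 0 to 38.6%. Right, the distribution of ATAC5 reads per outer region (log axis) in the 3837 members and the 27642 other peaks, with medians of 59 and 145.

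The distance from a member to the nearest peak of another library had a median of 10053 bases and reached 1442838 bases. It exceeded 10 kb for 1924 members (50.1%) and 100 kb for 234 (6.10%), and was between 501 and 2000 bases for 735 (19.2%). The nearest peak belonged to ATAC2 for 1396 members, to ATAC6 for 959 and to ATAC1 for 750, the 3 other libraries with the longest lists. Just inside the limit, 111 members with a distance of 501 to 600 bases had a median of 71 reads and 50.5% lay at a promoter. Just outside it, 138 peaks with a distance of 401 to 500 bases had a median of 82 reads and 48.6% lay at a promoter. Peaks on the 2 sides of the limit thus lay at promoters about as often.

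Most members lay away from promoters. A start site was within 1 kb of the peak centre for 645 members (16.8%, 15.7% to 18%), against 52.2% (51.6% to 52.8%) of the other ATAC5 peaks, a difference of -35.4 percentage points (95% Newcombe interval -36.7 to -34.0, for counting error only). Between 10 and 100 kb from a start site lay 45.2% of the members and 24.7% of the others, and over 100 kb 7.14% and 2.88%. The median distance to a start site was 11221 bases in the members and 767 bases in the others. Introns held 48.1% of the members and 34.8% of the others, untranslated regions 5.26% and 15.4%, coding exons 2.50% and 4.41%, and DNA between genes 42.6% and 42.8%. The share between genes differed by -0.22 points, with an interval of -1.88 to 1.46.

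Rank moved with this difference: of 5 equal bins of the ranked list, the first lay at promoters for 92.4% of its peaks and held no member. Within the other bins the promoter share was still lower in the members. The difference was -32.0 percentage points in the second, which held only 18 members (-47.3 to -8.86), -15.0 in the third (23.0% against 37.9%, -18.9 to -10.6), -12.2 in the fourth (-14.7 to -9.65) and -11.5 in the last (14.3% against 25.8%, -13.5 to -9.48). It was lower on 20 of 20 chromosomes. Among sets chosen by the same rule, the promoter share was higher in the ATAC5-only regions than in the ATAC1-only regions (13.2%, difference 3.65 points, 1.84 to 5.41) and the ATAC2-only regions (8.63%, 8.18 points, 6.75 to 9.62). Against the ATAC6-only regions (15.7%) the difference of 1.06 points had an interval of -0.98 to 3.04.

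**Figure D2:**
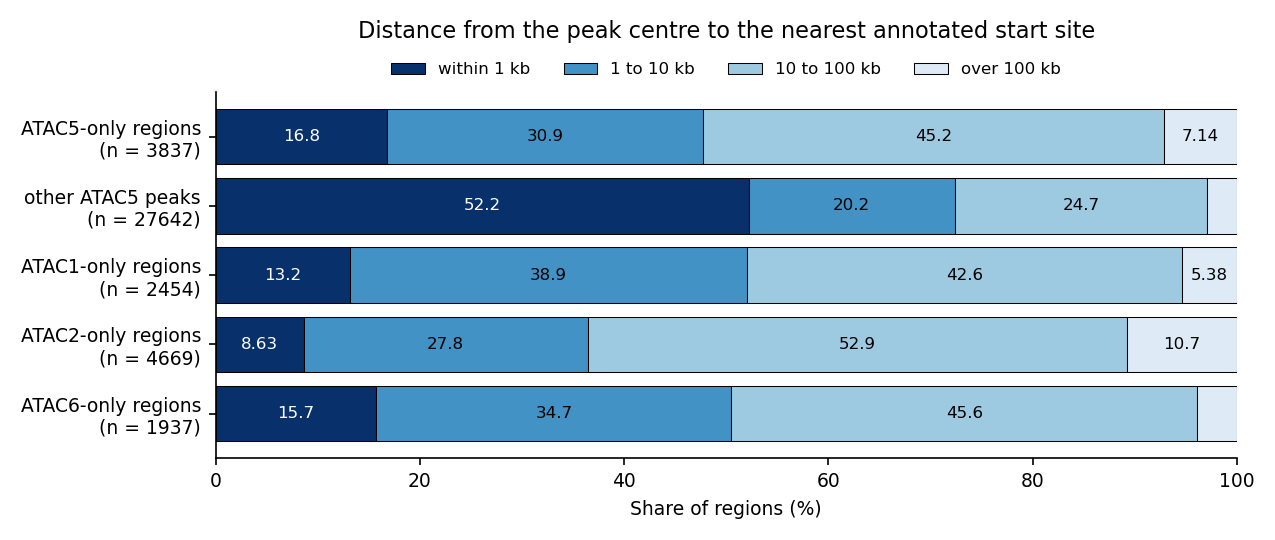
Share of regions (%) by distance from the peak centre to the nearest annotated start site, for the ATAC5-only regions, the other ATAC5 peaks and the regions open only in ATAC1, ATAC2 or ATAC6. The class within 1 kb held 16.8% of the ATAC5-only regions and 52.2% of the other ATAC5 peaks.

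On the 19 autosomes, members made up between 9.81% (chromosome 7) and 14.3% (chromosome 6) of the ATAC5 peaks. The X chromosome was lower, with 47 of 716 peaks (6.56%, 4.97% to 8.62%) against 12.3% over the autosomes. The X share was also the lower one in ATAC1 (5.02% against 10.1%), ATAC2 (11.2% against 14.6%) and ATAC6 (4.27% against 6.75%), but not in ATAC3 (1.28% against 0.91%), ATAC4 (0.787% against 0.715%) and ATAC7 (1.29% against 0.50%), where 5 or fewer such regions lay on X. Within 10 kb of another member lay 685 (17.9%), and within 10 kb of another ATAC5 peak that was not a member 1492 (38.9%). Of the 27642 other ATAC5 peaks, a larger set, 59.2% lay within 10 kb of another peak of that set. The members were not all separate stretches: 67 (1.75%) shared bases with another member, and 173 (4.51%) did so by their outer regions, in which reads are counted. Runs of 3 or more members numbered 38, and the one with most members, 5, covered 15739 bases of Tns1. Runs of 4 lay at Eps8, Cttnbp2nl and Stk17b.

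Of the 6 best-ranked members at promoters, 5 are described. The first, in an untranslated region of Col4a1 and 21 bases from the start site of Col4a2, genes that are read in opposite directions and encode type IV collagen chains of basement membranes (chr8:11312699-11312869, mm9), had 211 ATAC5 and 80 Input reads, a fold of 4.52, and no peak of another library for 36222 bases. At Hsf4, a heat shock factor, the counts were 99 and 38, and at Lass1, a ceramide synthase, 124 and 82, with folds of 4.46 and 2.59. The regions at Ankhd1, in an intron 704 bases into the gene and 523 bases from an ATAC4 peak, and at the start of Ankrd60, both encoding ankyrin repeat proteins, had 94 and 101 ATAC5 reads over 34 and 36 Input reads. Their Input counts, 34 to 82, were all above the median of 12 of the members, and their folds were under 5.

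A start site with a peak in ATAC5 alone was a property of few genes. Of 22225 protein-coding genes, 560 had a member at a start site, and 295 of these (1.33% of all genes) had no start-site peak in any other library, whereas 151 had a start-site peak in all 7 libraries and the member beside it. The best regions of the 295 genes had between 30 and 211 ATAC5 reads with a median of 66, a median of 22 Input reads and a median fold of 5.25. Counted by start-site peaks alone, without the 500-base rule, a peak in a single library was found for 299 genes in ATAC5, 138 in ATAC2, 117 in ATAC6 and 113 in ATAC1, and for 12 or fewer in ATAC3, ATAC4 and ATAC7. ATAC5 also had the most reads summed over its outer regions, 8766021 against 6172476 in ATAC2, 8580233 in ATAC6 and 6814592 in ATAC1, and the part of this in the counts was not tested.

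The 8 best-ranked members over 10 kb from a start site had lower Input than the promoter members, between 11 and 32 reads. The Doc2b region, in an intron of Gm12339 and 17297 bases from the Doc2b start site, had 159 ATAC5 and 22 Input reads and lay 43788 bases from the nearest peak of another library. The H2afz region, 111407 bases from that gene and only 6 bases wide, had 128 and 32 reads. In an intron of Il31ra the counts were 127 and 17, at Pdp2 113 and 19, and at Lbx1 76 and 11. The other three were at Mbd2, which binds methylated CpG (111 and 20 reads), in 1700106N22Rik (79 and 13), and in an intron of Nsmce2, a SUMO ligase of the SMC5/6 complex (103 and 11, fold 16.0). Folds of these 8 regions lay between 6.85 and 16.0.

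Of the members, 2738 (71.4%) lay in a protein-coding gene or within 10 kb of one. Such a region was assigned to 2629 of 22225 genes (11.8%), against 8.25% for ATAC1-only, 11.2% for ATAC2-only and 7.51% for ATAC6-only regions. Gene length moved with the assignment, with 17.7% of genes of 20 kb or more and 7.29% of shorter genes holding a member. Of the 2629 genes, 83.1% also had another ATAC5 peak, against 63.2% of all protein-coding genes, and 153 had 3 or more members. The most, 19, fell in Gm20388, a gene model of 4434882 bases that spans many genes, one of them Foxf1a, whose start site lay 312 bases from the strongest (176 ATAC5 and 85 Input reads).

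Tns1, which encodes tensin, a protein linking actin to integrins at focal adhesions, had 9 members, the most of any other gene. All 9 lay in introns of the 214217-base gene, 1 of them 779 bases from an internal start site, between 46.9 and 191 kb from its 5′ end, with 34 to 84 ATAC5 reads over 6 to 30 Input reads. The start site of Tns1 had a peak in all 7 libraries. Over the gene and 10 kb on either side ATAC5 had 27 peaks, ATAC2 18, ATAC6 14, ATAC1 9, ATAC7 7, ATAC3 4 and ATAC4 1. The member 125 kb from the 5′ end lay 600 bases from an ATAC1 peak and 2 others within 1000 bases of an ATAC2 peak, while the other 6 were 2090 to 5442 bases from any. Arhgap26, a GTPase-activating protein, had 7 members, and Etv6 (an ETS repressor), Nsmce2 and 2010111I01Rik had 6 each.

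**Figure D3:**
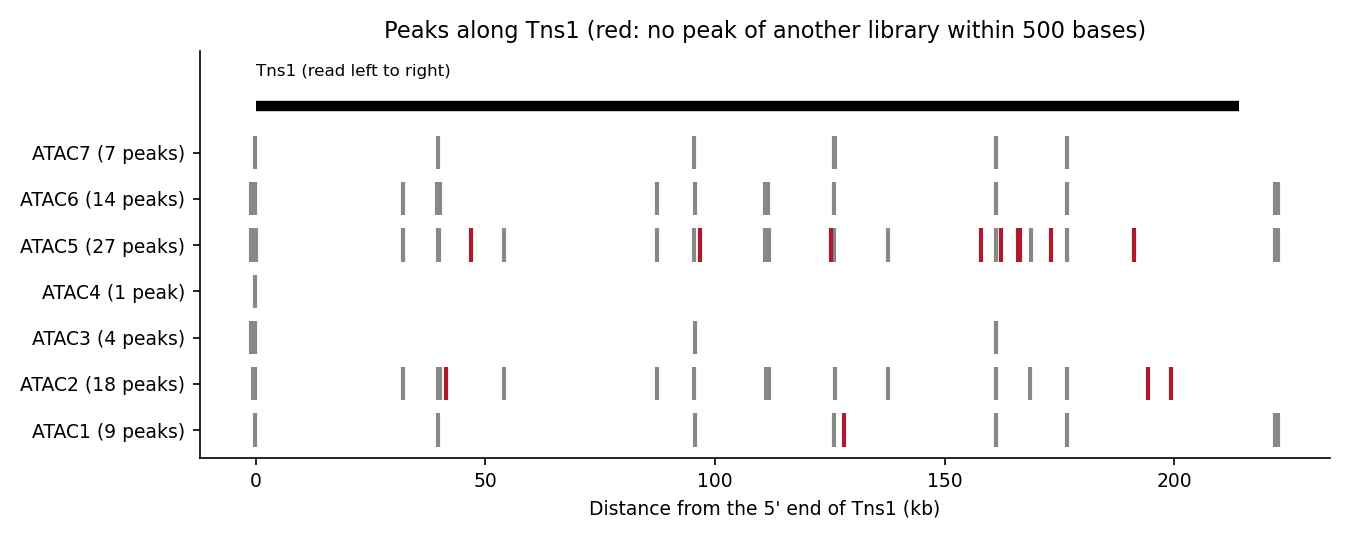
Peaks of the 7 libraries along Tns1, by distance from the 5′ end of the gene (kb), with the number of peaks per library. Each mark is a peak centre, drawn at a fixed width, and red marks have no peak of another library within 500 bases. ATAC5 has 27 peaks, of which 9 are red, and all libraries have a peak at the start site.

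Genes of 16 cell-type and pathway lists were then examined, each with 20 genes, of which 19 or 20 were found in the annotation. Counts are set beside 11.8%, the share over all protein-coding genes. Gene length moved with the assignment, so the number of genes of 20 kb or more is given for the lists with a member in 5 or more genes. Since a list has few genes, these counts are descriptions.

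Of the fibroblast matrix genes, 10 of 20 had a member, and 15 of the 20 were long, with 8 of these among the 10. Fbn1, encoding the microfibril protein fibrillin, had 3 (40 to 90 ATAC5 reads over 3 to 14 Input reads), and Tnxb, a tenascin, 2 (46 and 63 over 13 and 19). Sparc, a collagen-binding glycoprotein, had an intronic member with 138 over 21 reads, and Col3a1, a fibrillar collagen, one with 98 over 10. Col5a1, Col6a1, Lox, Dpt, Loxl1 and Cd34 had 1 each. The number depended on the distance that counts as near, falling to 5 of 20 at 2000 bases, where the share over all protein-coding genes was 9.23%.

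Among stromal and niche genes, 7 of 20 had a member, 1 each, with 12 of the 20 long and 5 of these among the 7. Against 295 of all 2629 protein-coding genes with a member, 3 of the 7 genes had a start-site peak in ATAC5 alone. These were Twist2, a bHLH factor of mesenchyme (110 ATAC5 and 43 Input reads), Nes, the intermediate filament nestin (58 and 10), and Grem1, a secreted BMP antagonist (50 and 26). The members of Prrx1, Ebf3 and Pdgfrb were intronic, with 64 over 7, 62 over 29 and 62 over 25 reads, and that of Ebf1 lay at its 3′ end, with 48 over 11. Pdgfrb and Ebf1 also stand on the pericyte and B-lymphoid lists. Cxcl12 and Kitl, which encode niche factors, and Lepr, a receptor that marks niche cells, were not among the 7.

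Of the hematopoietic stem cell genes, 8 of 20 had a member, and 15 of the 20 were long, with 6 of these among the 8. Etv6 had 6 (48 to 114 reads over 8 to 27), Runx1 2 (45 and 53 over 10 and 11) and Erg 2 (37 and 65 over 8 and 11). Procr and Cd34, which encode surface markers, had a start-site peak in ATAC5 alone (68 over 23 and 64 over 32). Mecom, Hoxa9 and Hlf had 1 each. Cd34 also stands on the fibroblast list and Erg on the endothelial one. ATAC1-only regions marked 7 of these 20 genes.

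Among endothelial genes, 5 of 20 had a member (4 of the 11 long genes). In 3 of the 5, against 295 of all 2629 genes with a member, the start site had a peak in ATAC5 alone. These were Pecam1, the VEGF receptor gene Kdr (59 over 22 reads, 106927 bases from any peak of another library) and Sox7 (90 over 35). Pecam1 had 3 members (56 to 83 over 7 to 26), Erg 2 and Fli1 1. Of pericyte and smooth muscle genes, 5 of 20 had one (4 of the 11 long genes), with 3 at Mcam (51 to 72 over 6 to 29), whose start site had a peak in ATAC5 alone, 2 at Cspg4 (43 and 47 over 3 and 11), and 1 each at Abcc9, Myocd and Pdgfrb. Of adipocyte genes, 5 of 19 had one (1 of the 7 long genes): 3 lay around Cebpb (41 to 79 over 9 to 19), and 1 each at Adipoq, Plin1, Klf15 and the start site of Pparg, the master regulator of fat cells (74 over 32), with a peak in ATAC5 alone.

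Chondrocyte genes had members in 4 of 20, at Col2a1, Col9a1, Col11a1 and Fgfr3 (49 to 62 ATAC5 reads), while ATAC2-only regions marked 14 of 20. Osteoblast genes had them in 3 of 20, with 2 overlapping calls at Runx2 (68 and 69 reads over 5 and 8, partly the same stretch) and 1 each at Phex and Sost. B-lymphoid genes had 4 of 20, with the Cd79a start site open in ATAC5 alone (82 over 14), neuronal genes 3 of 20, and 2 were counted for the macrophage, T and NK, hepatocyte, and NF-κB and inflammation lists of 20 and for the granulocyte list of 19. Erythroid and megakaryocyte genes had 1 of 20. On the hepatocyte list, drawn from another tissue, were Apob, whose start site had a peak in ATAC5 alone (59 over 7 reads, 229154 bases from any other library's peak), and Hnf4a, with 2 members (50 and 96 over 12 and 22). The shares of the macrophage, granulocyte, T and NK, hepatocyte and inflammation lists were near the background. Some small counts depended on how regions were assigned: with the nearest start site within 50000 bases (10.5% of all genes), inflammation had 5 of 20, osteoblast 5, B-lymphoid 2, neuronal 1 and T and NK 0. At 2000 bases as near (9.23% of all genes), B-lymphoid had 2, T and NK 1 and erythroid 0.

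**Figure D4:**
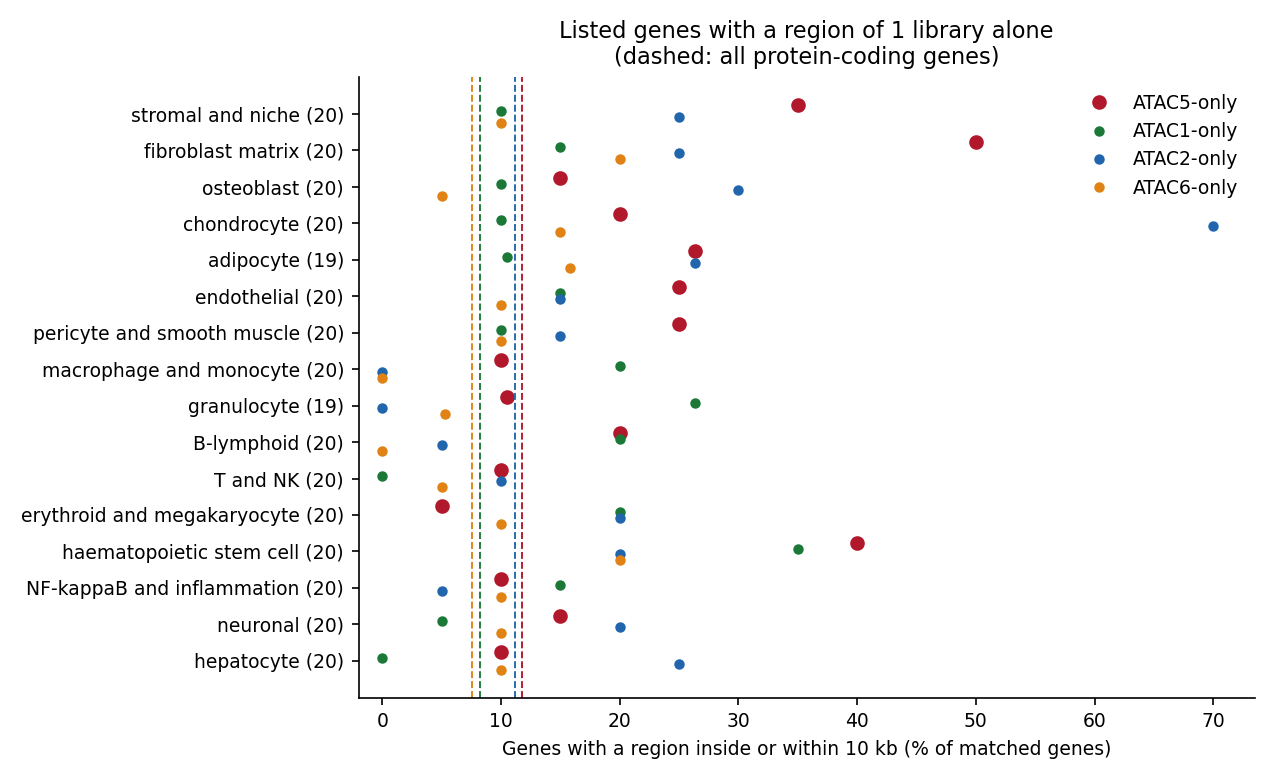
Percent of the genes of each list with a region of 1 library alone inside the gene or within 10 kb, for ATAC5, ATAC1, ATAC2 and ATAC6, with the number of genes found in brackets. Dashed lines give the share over all protein-coding genes (11.8% for ATAC5). The fibroblast matrix list, at 50%, is the highest for ATAC5, and the chondrocyte list, at 70%, for ATAC2.

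The base composition of the members was lower in G+C. In 200 bases about the centre, the median G+C share was 49.5% in the members and 56.5% in the other ATAC5 peaks. Apart from promoters the medians were 48.5% (48.5% to 49.0%, order-statistic interval) and 51.0% (51.0% to 51.5%), and at promoters 58.5% (57.0% to 60.5%) and 64.5%. The ratio of observed to expected CpG at promoters was 0.523 in the members and 0.794 in the others. Within the rank bins the promoter median of the members was not the lower one: in the third bin the members had 63.0% (59.0% to 66.0%) and the others 60.5% (60.0% to 61.5%), in the fourth 61.0% and 58.0%, and in the last 56.0% and 55.0%. The CpG ratio at promoters was 0.698 in the members and 0.659 in the others in the third bin. It was 0.588 and 0.595 in the fourth, and 0.422 and 0.508 in the last. Away from promoters a G+C gap of 1 to 3 points remained in the third to the last bin.

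Motifs were counted in the same windows of the 3192 members and 13210 other ATAC5 peaks over 1 kb from a start site. Besides AP-1 and the GC box, the letters searched on both strands were those for RUNX (TGTGGT), for ETS (GGAAGT) and its longer PU.1 form (AGAGGAAGT), for GATA factors (AGATAA), for TEAD (GGAATG), for SOX (ACAAAG), for homeodomain factors (TAATTA), for FOX (TGTTTAC), for C/EBP (TTGCNNCAA), for STAT (TTCNNNGAA), and for the E-box (CANCTG) with its narrower form, counted again by itself (CAGCTG). CTCF, NRF1, EBF, MEF2, NF-κB, IRF and NFI motifs were also searched, which made 21. A match is a string of letters and not a bound site. Intervals of the differences were widened to 99.76% for the 21 motifs, and with these 3 motifs were more frequent in the members, 3 less frequent and 15 had an interval that held 0.

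The CTCF motif was present in 7.05% of the members and 4.31% of the other peaks, a difference of 2.73 points (1.35 to 4.32). It was higher in the members within each of 4 equal bins of G+C content and in each of the 3 rank bins with enough members, with 95% intervals above 0 in all 7. In the last rank bin the shares were 6.23% and 3.21%, and in the fourth 8.52% and 4.45%. The share was also higher than in ATAC1-only (1.36%) and ATAC2-only regions (2.93%), with widened intervals of 4.08 to 7.30 and 2.58 to 5.77 points. Against ATAC6-only regions (8.33%) the difference was -1.28 points, with an interval of -3.92 to 1.10. At promoters, 2.64% of the members and 0.880% of the others had a match.

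The 225 distal members with a CTCF match were narrow and weak. Their peaks had a median width of 41 bases (35 to 47), against 159 (153 to 165) in the 2967 distal members without one, and a median of 42 ATAC5 reads (40 to 45) over 7 Input reads, against 59 over 11. The fold was much the same, 9.78 and 9.51. The match lay within 25 bases of the peak centre in 169 of them (75.1%), as in the Anxa1 window above, where the counts were 59 and 2. Among the 570 other ATAC5 peaks with a match the median width was 62 bases and 50.7% had it within 25 bases of the centre. These widths and reads belong to the calls that chose the members.

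GATA matches were present in 6.58% of the members and 4.72% of the others (1.86 points, 0.51 to 3.42), and TEAD matches in 14.7% and 12.3% (2.36 points, 0.35 to 4.54). Each of the 2 motifs was higher in the members in 4 of 4 G+C bins and in 2 of 3 rank bins. Unlike for CTCF, most of the intervals in these bins held 0. The 95% interval for GATA was above 0 in 1 of 3 rank bins and in 0 of 4 G+C bins, and that for TEAD in 1 of each. The GC box was less frequent in the members, with 7.64% against 13.3% (-5.69 points, -7.30 to -3.91), but within rank bins the differences of -2.03, -0.57 and -1.11 points all had intervals that held 0. By G+C content it was -9.46 points (-13.5 to -5.11) in the bin of highest G+C, and the intervals of the other 3 bins held 0. For RUNX, whose widened interval held 0, the 95% interval was below 0 in 3 of 3 rank bins and 2 of 4 G+C bins. ETS matches (15.7% against 18.2%) and NRF1 matches (0.125% against 0.643%) were also less frequent, with the 95% interval for ETS below 0 in 2 of 3 rank bins and 1 of 4 G+C bins, and that for NRF1 in 0 of 3 and 1 of 4. AP-1, with 25% and 24.6%, differed by 0.42 points (-2.11 to 3.07).

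Sets chosen by the same rule also differed from each other. AP-1 matches were present in 25% of the ATAC5-only, 11.4% of the ATAC1-only, 30.6% of the ATAC2-only and 18.9% of the ATAC6-only regions. These sets come from 1 library each, so the intervals compare regions of those libraries and not the cells they stand for. RUNX matches were least frequent in the ATAC5-only regions, with 18.3% against 23.9%, 28.7% and 24.4%. GATA matches, at 6.58%, stood below ATAC1-only (14.8%) and ATAC6-only (12.3%) and above ATAC2-only regions (3.56%). ETS matches were far below those of ATAC1-only regions (31.2%), by 15.5 points. Of the 21 widened intervals, 16 held 0 against the ATAC6-only regions, the smallest of the 3 sets, 11 against the ATAC1-only and 14 against the ATAC2-only regions.

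**Figure D5:**
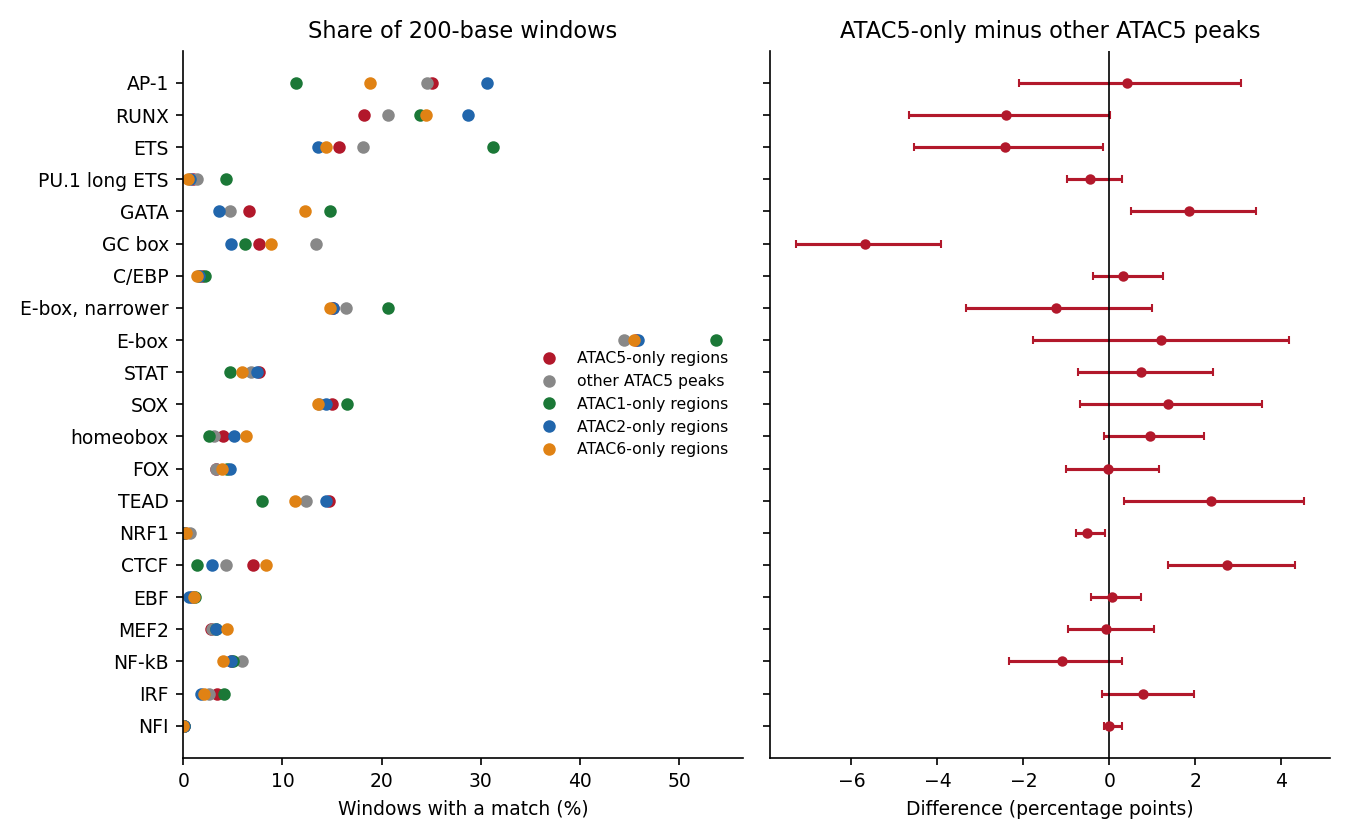
Motif matches in 200-base windows over 1 kb from a start site. Left, the percent of windows with a match in the ATAC5-only regions, the other ATAC5 peaks and the regions open only in ATAC1, ATAC2 or ATAC6. Right, the difference between ATAC5-only regions and other ATAC5 peaks (percentage points) with 99.76% Newcombe intervals, where CTCF is 2.73 points higher and the GC box differs by -5.69 points.

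Whether a region was open in ATAC5 alone rests on the calls of 7 lists of unequal length, between 15188 and 32280 peaks, and the tables give no reads of the other libraries at the members. With the 15188 best-ranked peaks of each list, 728 regions were ATAC5-only and 31.0% of them lay at a promoter, against 72.2% of the other peaks.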

How the data were processed

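ATAC-seq was made by the authors from sorted cells with the Tn5 transposase. Reads were aligned to mm9 with Bowtie, and peaks were called for each library against Input with CisGenome. The extract protocol in the labels describes RNA and was not relied on. The deposited tables hold per peak the counts of reads in ATAC5 and in Input, which are raw, and the fold (ratio) of ATAC5 over Input, as computed by the authors. Library totals are not in the tables, so the depth is unknown. The BED files were not used.

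Distances between peaks were computed with pandas 2.3.3 and checked with bedtools 2.31.1 and on simulated data. Annotation was GENCODE vM1 and sequence the mm9 genome, read with pysam 0.24.0. Intervals are Wilson (shares) and Newcombe (differences) from scipy 1.17.1 and cover counting error only, while neighbouring regions are not independent. With 1 library per title there was no test. Named regions were the 6 best-ranked promoter members and the 8 best-ranked members over 10 kb from a start site, with the best-ranked member of each gene list, the 5 genes with most members and ties, and listed genes with 2 or more. 1 of the promoter members is not reported here. Other listed genes were named after their values were seen. Sequences were printed only for windows without untranslated regions or chromosome 18. The members, lists and motifs were chosen with earlier results of these data known. Alternatives were the distance that counts as near, a fold of at least 5, equal list lengths, outer regions, peaks without Input reads left out, and limits of promoters, groups, windows and genes.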

Additional observations from a re-analysis of the deposited data

How the results depend on the processing

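The direction of each difference from the other ATAC5 peaks (promoter share, distance, reads, Input reads and G+C) held under all alternatives run, but the values moved. The number of members was 5773 when only a shared base counted as near, 1924 with 10000 bases and 728 with equal list lengths.

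With a shared base, 2000 and 10000 bases, a fold of at least 5, equal list lengths and outer regions, the promoter share was 26.6%, 14.3%, 14.9%, 23.6%, 31.0% and 14.7%, and the median distance to a start site 7281, 13630, 18234, 8421, 5412.5 and 12199 bases. The promoter share was 12% and 23.7% with limits of 500 and 2000 bases, and with protein-coding start sites 15.4%, at a median of 14908 bases. Median reads were 66 with a shared base, 66 with a fold of at least 5 and 124 with equal lengths, and Input reads 13, 13 and 20. Members grouped with another within 10 kb made up 24.1%, 16.3%, 14.7%, 22.0% and 7.01% in the order above without outer regions, and 13.9% and 28.0% at group distances of 5000 and 25000 bases. Median G+C was 50.5% with a shared base, 48.5% with 10000 bases, 50.5% with a fold of at least 5 and 53.5% with equal lengths.

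The AP-1 difference, whose interval held 0, was -0.54 points in 300-base windows; the cause was not tested. For RUNX, whose widened interval already held 0, the 95% interval was -3.87 to -0.86 points as reported and -3.25 to 0.01 at 2000 bases. CTCF stayed higher in the members in both alternatives run for it (2.53 and 3.06 points). No paired analysis was possible because the labels give every title a single library. Counts of 21 to 249 reads per member limit what can be told of a single region.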

Other observations

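Away from promoters, the closest start-site gene of a member was often open too: 2303 of 3192 distal members (72.1%) had as their nearest protein-coding gene one with a start-site peak in ATAC5, against 74.9% of 13210 other distal ATAC5 peaks, and 1531 (48.0%) had one with a start-site peak in all 7 libraries, against 52.1%. For 732 members (22.9%) no library had a start-site peak at that gene, against 20.2% of the others. In the members at promoters, AP-1 matches were present in 8.84% and RUNX matches in 11.9%, against 4.55% and 7.71% of the other ATAC5 promoter peaks (differences of 4.29 points, 2.31 to 6.75, and 4.23 points, 1.90 to 6.99, 95% Newcombe intervals), while the GC box was present in 34.0% against 52.3% (-18.4 points, -22.0 to -14.5). Motif shares at promoters, with those of CTCF above, were not compared within bins of rank or G+C content. Their intervals were not widened for the number of motifs.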
